A study of Mus musculus with 6 samples.

Results

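The genes examined were 9 that write, erase or read cytosine methylation, taken by name from the 51733 gene symbols counted in each library. They were the maintenance writers Dnmt1 and Uhrf1, the de novo writers Dnmt3a and Dnmt3b, the erasers Tet1, Tet2 and Tet3, and the readers Mbd1 and Mbd3. All 9 were in the files, and all 9 were among the 21329 genes that entered the test. They were compared between neural progenitor cells (NPCs) of Ybx1-knockout embryos and of wild-type controls, library by library, with the ratio of Dnmt3a to Dnmt3b as a readout of stage.

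DNA methylation is placed on CpG dinucleotides by DNA methyltransferases. Dnmt1 copies the pattern onto new strands after replication, guided by Uhrf1, which recognises half-methylated sites. Dnmt3a and Dnmt3b set new marks, and in the developing nervous system Dnmt3b is known as the form of early progenitors and Dnmt3a as the form that persists into later stages and neurons. The Tet enzymes oxidise methylcytosine, which opens the way to its removal. Mbd1 binds methylated CpGs through its MBD domain, while Mbd3 carries a related domain with little affinity for methylated DNA and is a subunit of the NuRD complex.

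Libraries of total RNA came from Sox2-positive cells that were sorted by flow cytometry through a Sox2-eGFP reporter out of embryonic neural tubes at E13.5. Both groups carry the strain label C57BL/6. The control group holds 3 wild-type libraries (control 1 to 3), and the Ybx1-KO group 3 libraries (Ybx1-KO 1 to 3) of embryos homozygous for the null allele Ybx1tm1Ley, an allele carried by the whole embryo and not by NPCs alone. Whether each library came from 1 embryo or from a pool is not given in the sources used here, so the p-values below measure the spread between these libraries.

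The control libraries held 20841990 to 23883542 counts on genes and the Ybx1-KO libraries 4743279 to 13321952, so that 3 counts, the floor used here, stood at 0.140 to 0.152 CPM (counts scaled to a common library size) in control and 0.312 to 0.426 CPM in Ybx1-KO. Ybx1-KO 3 stood apart. In it 59.5% of tallied read pairs lay outside genes, against 30.6 to 46.7% elsewhere, and 1510 odorant, pheromone and taste receptor genes, which NPCs should not use, held 3.67 counts per kb of exon, against 0.0278 to 0.337. Ybx1 itself, the deleted gene, was at 238, 531 and 306 CPM in control and at 126, 55.4 and 9.66 CPM in Ybx1-KO, so the highest Ybx1-KO library lay under the lowest control. Its log2 fold change was -2.49 (SE 0.68, Benjamini-Hochberg adjusted p = 0.301 by the quasi-likelihood test of edgeR). It was called with DESeq2 (adjusted p = 0.0236), when genes of low count were kept (0.0214 in edgeR), without Ybx1-KO 1 (8.6e-05 in edgeR, log2 fold change -3.49) and without Ybx1-KO 2 (0.0011 in edgeR). Ybx1-KO 1 still held 1112 counts on Ybx1 and Ybx1-KO 2 held 533, and counts over the whole gene do not show from which part of it the reads come. The 9 listed markers of neural progenitors summed to 1501 to 1665 CPM in control and 1180 to 1897 CPM in Ybx1-KO, and none was at 0. The 13 neuronal markers summed to 3621 to 6494 CPM in control and 2114 to 5112 CPM in Ybx1-KO. In such bulk samples, fewer cells of a type and less RNA per cell cannot be told apart.

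Because the deleted factor is a Y-box-binding protein, a name that comes from the CTGATTGG box of promoters, the letters upstream of the members were examined first. RefSeq (GRCm38.p6) gave 13 windows of 250 bases before annotated starts for 8 of the 9 members, and none was used for Mbd1. The Y-box letters CTGATTGG, searched on both strands, lay in 4 of these windows, which belong to 3 genes: both starts of Uhrf1, the single start of Mbd3 with 3 copies, and the most upstream of the 3 starts of Dnmt1. Of all 32851 RefSeq windows of this length, 3.83% held them. The shorter CCAAT, which every Y-box contains on one strand, lay in 6 of the 13 windows and in 33.8% of all windows. The E2F-type letters TTTCCCGC and TTTGGCGC, present in 0.895% and 0.417% of all windows, lay in none of the 13. Other E2F-type letters were not searched. Among these, TTTCGCGC lay in the window of the second start of Uhrf1, and its share of all windows was not counted. A match is a stretch of letters, and no binding was measured in these libraries.

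The windows of Uhrf1 and Mbd3 are shown as windows that hold the Y-box letters, and that of Dnmt3b as a member without a match whose level enters the stage ratio. Each is written 5′ to 3′ on the strand of its gene, ends before any annotated exon, and has Y-box and CCAAT matches in capitals.
Uhrf1 first start, chr17:56303087-56303320 on the plus strand: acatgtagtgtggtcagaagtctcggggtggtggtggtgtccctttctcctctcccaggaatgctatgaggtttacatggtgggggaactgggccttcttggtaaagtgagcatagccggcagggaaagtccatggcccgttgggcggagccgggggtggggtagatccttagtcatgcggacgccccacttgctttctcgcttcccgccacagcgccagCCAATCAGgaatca
Uhrf1 second start, chr17:56304063-56304312 on the plus strand: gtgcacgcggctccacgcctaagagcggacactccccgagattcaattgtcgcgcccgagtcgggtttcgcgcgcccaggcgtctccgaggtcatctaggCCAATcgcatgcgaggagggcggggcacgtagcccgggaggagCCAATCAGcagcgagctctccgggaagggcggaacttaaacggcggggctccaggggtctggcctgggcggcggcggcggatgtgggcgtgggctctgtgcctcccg
Mbd3, chr10:80399551-80399781 on the minus strand: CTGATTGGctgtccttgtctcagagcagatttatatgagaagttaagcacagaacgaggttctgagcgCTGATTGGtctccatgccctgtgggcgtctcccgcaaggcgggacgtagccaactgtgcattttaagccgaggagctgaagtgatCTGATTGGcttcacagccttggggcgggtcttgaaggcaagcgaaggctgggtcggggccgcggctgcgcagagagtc
Dnmt3b, chr2:153649199-153649448 on the plus strand: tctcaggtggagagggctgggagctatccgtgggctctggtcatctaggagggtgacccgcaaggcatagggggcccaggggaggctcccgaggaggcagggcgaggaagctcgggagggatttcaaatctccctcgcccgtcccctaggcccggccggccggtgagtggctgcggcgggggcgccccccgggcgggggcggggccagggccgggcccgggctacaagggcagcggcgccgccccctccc
In Uhrf1 the Y-box began 30 bases before the first start and 107 before the second. In Mbd3 the 3 copies began 97, 182 and 250 bases before the start. The full windows held 10 CpGs at the first start of Uhrf1, 30 at the second, 14 in Mbd3 and 21 in Dnmt3b. Over all windows the median was 6 and the upper quartile 16, so the first start of Uhrf1 and Mbd3 lay below that quartile.

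No member passed the test. Under the thresholds of 0.05 for the adjusted p and 1.5 for the fold change, edgeR called 0% of the 21329 genes tested, and the smallest adjusted p among the 9 members was 0.444. At an unadjusted p below 0.05, 6.96% of all genes tested were higher and 4.26% lower in Ybx1-KO NPCs, 2393 genes in all, and 1 of the 9 members, Uhrf1, was among those higher. The libraries of the groups did not overlap, with Ybx1-KO above control, at 4.99% of the genes tested, and with Ybx1-KO below at 8.15%. Uhrf1 was again the 1 member without overlap. The estimates of 6 members lay above 0 and of 3 below, with a median log2 fold change of 0.16, against 0.31 over all genes tested. Over all genes tested, 13073 estimates lay above 0 and 8256 below. The median over all genes tested depended on the libraries used, and was 0.013 without Ybx1-KO 3, when 15184 genes were tested. Limma-voom called 0 genes and DESeq2 214, and neither called a member.

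**Figure D1:**
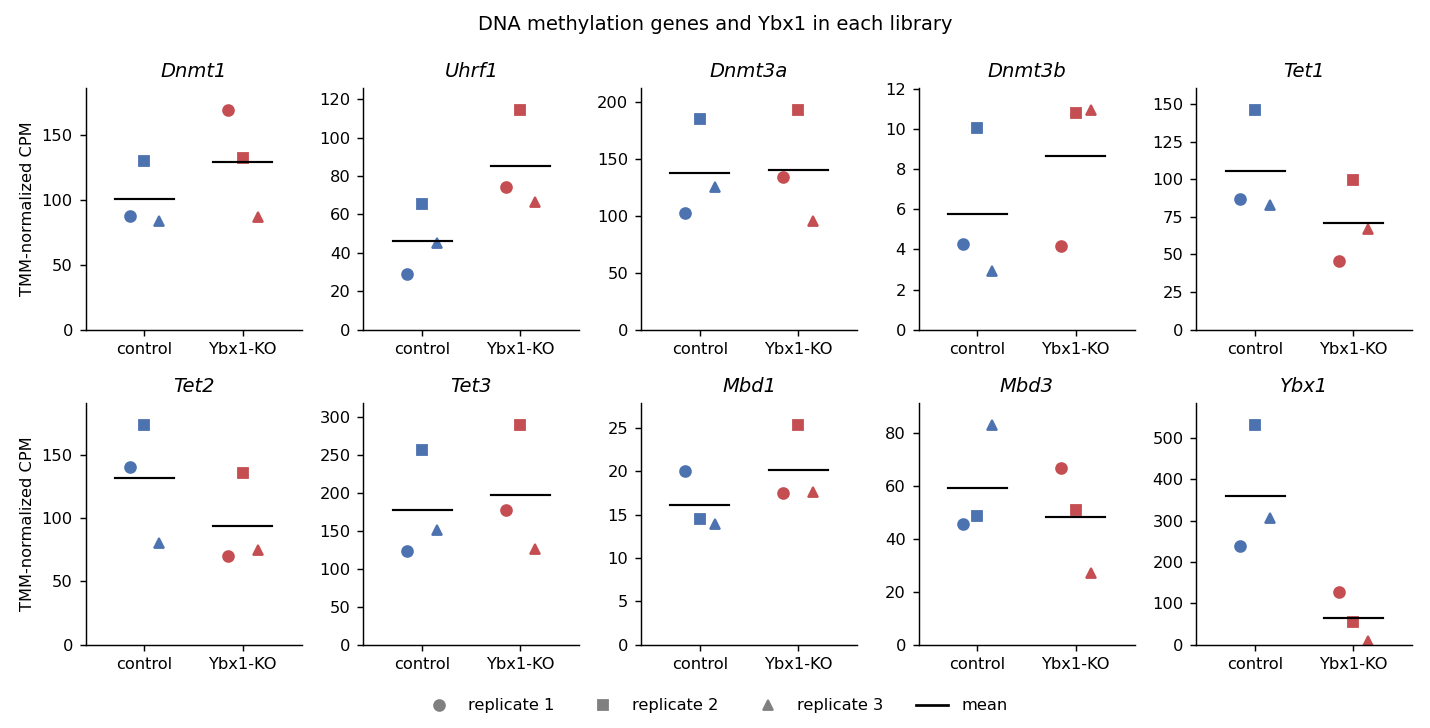
TMM-normalized counts, scaled to CPM, of the 9 members and of Ybx1 in the 3 control (blue) and 3 Ybx1-KO (red) libraries, with the group mean as a line. Among the members only Uhrf1 has its Ybx1-KO libraries all above control, with 66.6 CPM in the lowest of them against 65.2 CPM in the highest control.

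Among the maintenance writers, Uhrf1 (chromosome 17, 56303321 to 56323486, GRCm38) had 28.8, 65.2 and 44.9 CPM in control 1 to 3 and 74.5, 114 and 66.6 CPM in Ybx1-KO 1 to 3. The groups did not overlap, but control 2 and Ybx1-KO 3 were nearly level. The means were 46.3 ± 18.2 CPM and 85.1 ± 25.5 CPM (SD, n = 3 each), a fold of 1.84 with a 95% interval from 1.01 to 3.36. The fitted log2 change was 0.88 (SE 0.41, unadjusted p = 0.0474, adjusted p = 0.444 in edgeR), and the adjusted p ran from 0.1999 to 0.787 over its alternatives. The two-sided exact permutation test gave p = 0.1, the smallest that 3 against 3 allow. The groups stayed apart under each of 4 scalings of the libraries, and also when the receptor-gene background was subtracted, with 73.8 CPM in Ybx1-KO 3 then. Leaving out control 1 lowered the log2 fold change to 0.62 (unadjusted p = 0.216 in edgeR), and leaving out control 2 raised it to 1.21 (unadjusted p = 0.0213).

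Dnmt1 (chromosome 9, 20907209 to 20959888) had 87.8, 129.7 and 83.2 CPM in control and 169, 132 and 86.5 CPM in Ybx1-KO. Ybx1-KO 1 was the highest of the 6 libraries, while Ybx1-KO 3 lay between control 1 and control 3. On the log2 scale the change was 0.37 (95% interval -0.50 to 1.23, adjusted p = 0.680 in edgeR), and it was 0.066 without Ybx1-KO 1, 0.60 without control 2 and 0.61 without Ybx1-KO 3. Within a library, Uhrf1 per kb of exon was 0.568, 0.871 and 0.934 of Dnmt1 in control and 0.765, 1.498 and 1.33 of it in Ybx1-KO. These ratios overlapped, since that of Ybx1-KO 1 lay below those of control 2 and control 3 (exact permutation p = 0.3).

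Among the de novo writers, Dnmt3a (chromosome 12, 3806007 to 3914443) had 103, 185 and 125 CPM in control and 134, 193 and 94.9 CPM in Ybx1-KO. The highest and the lowest library were both Ybx1-KO, and the means were 138 ± 42.6 and 140.4 ± 49.2 CPM (SD, n = 3 each). The log2 fold change of 0.03 had a 95% interval from -0.87 to 0.93, which spans folds of 0.548 to 1.90. An antisense gene, Dnmt3aos, shares 0.799% of the exon bases of Dnmt3a and held 0 to 9 counts.

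Dnmt3b (chromosome 2, 153649450 to 153687730) was the lowest member per kb of exon and rested on few reads. It had 89, 215 and 58 counts in control and 37, 104 and 77 counts in Ybx1-KO, or 4.27, 10.1 and 2.95 CPM against 4.20, 10.8 and 10.9 CPM. Control 2, Ybx1-KO 2 and Ybx1-KO 3 were thus close together and high, and the other three libraries were low, whatever their genotype. The log2 fold change was 0.58 (95% interval -0.81 to 1.98, adjusted p = 0.683 in edgeR), and it ran from 0.27 without control 3 to 1.26 without control 2. At the receptor-gene density, a silent gene as long as Dnmt3b would hold 18.7 counts in Ybx1-KO 3, which is 24.3% of the 77 found there, and 0.142 to 1.72 counts in the other libraries. Dnmt3c, a close copy of Dnmt3b that lies beside it in the rodent genome, was not analysed here, and how read pairs that fit both genes were counted is not given in the sources used here.

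The stage ratio of Dnmt3a to Dnmt3b, in counts per kb of exon, was 7.33, 5.63 and 12.9 in control 1 to 3 and 9.65, 5.44 and 2.65 in Ybx1-KO 1 to 3. Ybx1-KO 1 lay between the controls, Ybx1-KO 2 just below control 2, and Ybx1-KO 3 lowest. On the log2 scale the means were 3.02 ± 0.61 in control and 2.37 ± 0.94 in Ybx1-KO (SD, n = 3 each), a difference of -0.65, with overlapping groups (two-sided exact permutation test, p = 0.4, adjusted p = 0.5 over 5 ratios). Dnmt3b held 4.00%, 5.16% and 2.30% of the counts of both genes in control, with exact 95% binomial intervals of 3.22 to 4.90%, 4.51 to 5.87% and 1.75 to 2.96%. In Ybx1-KO it held 3.04% (2.15 to 4.17%), 5.31% (4.36 to 6.40%) and 10.3% (8.24 to 12.7%). The shares of control 2 and control 3 differ by more than these intervals, which cover counting error only, so the spread within the control group is wider than counting allows. Dnmt1 per kb against the sum of Dnmt3a and Dnmt3b was 1.70, 1.34 and 1.39 in control and 2.58, 1.31 and 1.49 in Ybx1-KO, with overlap (exact permutation p = 0.7). Without Ybx1-KO 3 the difference in the log2 Dnmt3a to Dnmt3b ratio came to -0.16, without control 3 to -0.31, without control 2 to -0.91 and without Ybx1-KO 1 to -1.10. With the receptor-gene background subtracted in all libraries it was -0.58.

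**Figure D2:**
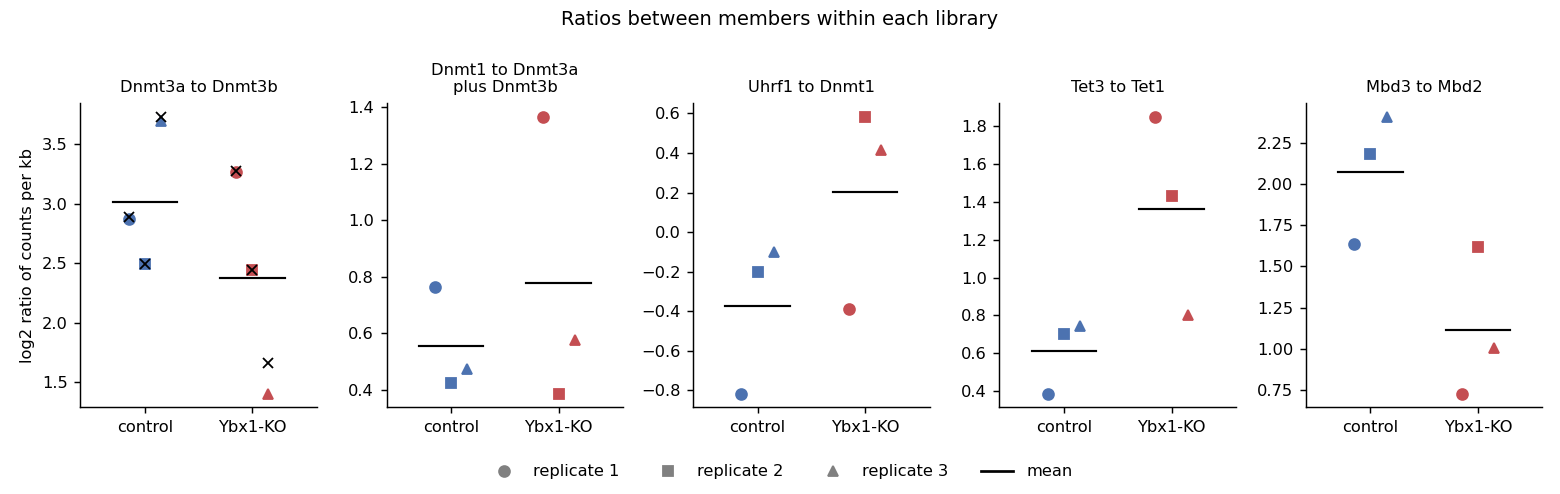
Log2 ratios of counts per kb of exon within each library, for 5 pairs of members or of a member and Mbd2, in control (blue) and Ybx1-KO (red), with group means as lines. Black crosses in the first panel give the ratio after subtraction of the receptor-gene background, which raises Ybx1-KO 3 from 1.40 to 1.67 and hardly moves the other libraries.

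The erasers Tet1 and Tet2 lay lower on average in Ybx1-KO NPCs. Tet1 (chromosome 10, 62804570 to 62908996) had 87.0, 146 and 83.0 CPM in control and 45.6, 99.3 and 66.8 CPM in Ybx1-KO, where only Ybx1-KO 2 exceeded any control. Its log2 fold change was -0.58 (95% interval -1.46 to 0.31, adjusted p = 0.524 in edgeR). Tet2 (chromosome 3, 133463679 to 133545139) had 139.9, 173 and 80.2 CPM against 70.0, 136 and 74.5 CPM, with Ybx1-KO 2 again inside the control range and a log2 fold change of -0.49 (95% interval -1.40 to 0.43). Both estimates stayed below 0 in all 17 alternatives, and in none was either called. Without control 2 they were -0.26 for Tet1 and -0.23 for Tet2.

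Tet3 (chromosome 6, 83362373 to 83459084), the most abundant Tet enzyme per kb in both groups, had 123, 256 and 150.4 CPM in control and 177, 289 and 126 CPM in Ybx1-KO. The groups overlapped, and the log2 fold change was 0.16 (95% interval -0.81 to 1.13). Within a library, Tet3 per kb was 1.31, 1.63 and 1.68 times Tet1 in control and 3.60, 2.69 and 1.75 times in Ybx1-KO. Every Ybx1-KO library thus lay above every control, Ybx1-KO 3 by little, and the log2 means were 0.61 ± 0.20 and 1.36 ± 0.53 (SD, n = 3 each). The exact permutation test gave p = 0.1, the smallest possible, and an adjusted p of 0.25 over the 5 ratios.

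Among the readers, Mbd1 (chromosome 18, 74267605 to 74282732) had 20.0, 14.5 and 13.9 CPM in control and 17.5, 25.3 and 17.6 CPM in Ybx1-KO, so that control 1 lay above 2 of the Ybx1-KO libraries. The estimate was 0.32 on the log2 scale (95% interval -0.53 to 1.18). A silent gene as long as Mbd1 would hold 24.6 counts in Ybx1-KO 3, or 19.8% of its 124 counts there.

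Mbd3 (chromosome 10, 80392539 to 80399550) had 45.5, 48.8 and 83.1 CPM in control and 66.9, 50.9 and 27.1 CPM in Ybx1-KO. Control 3 was the highest and Ybx1-KO 3 the lowest, and the other four libraries were within 45.5 to 66.9 CPM. The log2 fold change was -0.29 (95% interval -1.17 to 0.59), and it lay just above 0, at 0.04 or 0.01, when control 3 or Ybx1-KO 3 was left out. Mbd2, the methyl-binding protein that takes the place of Mbd3 in the other form of NuRD, had 23.6, 17.4 and 25.3 CPM in control and 65.3, 26.8 and 21.9 CPM in Ybx1-KO. Mbd3 per kb was 3.11, 4.53 and 5.31 times Mbd2 in control and 1.66, 3.07 and 2.00 times in Ybx1-KO, so the groups did not overlap. The log2 difference was -0.96 (exact permutation p = 0.1, adjusted p = 0.25 over the 5 ratios).

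**Figure D3:**
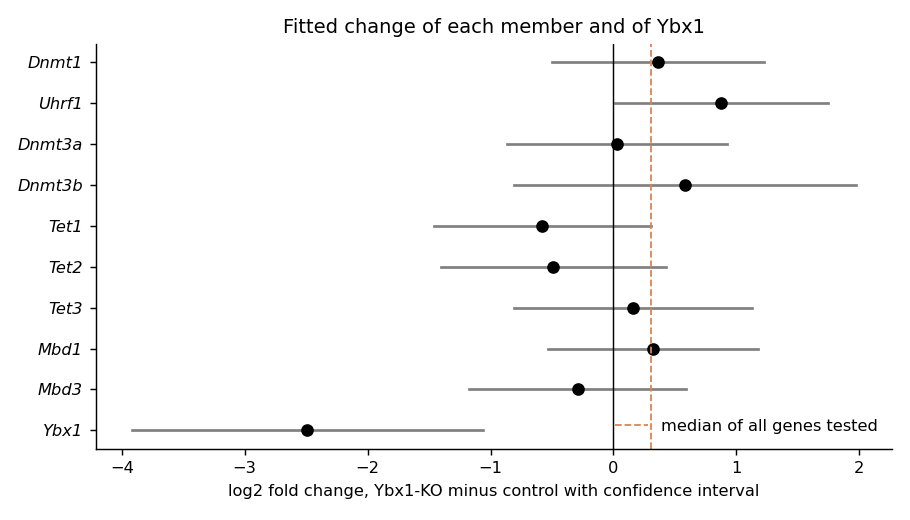
Log2 fold change of each member and of Ybx1 in Ybx1-KO against control NPCs, fitted by edgeR over 3 libraries a group, with 95% intervals as bars. The dashed line is the median of all genes tested, 0.31, and among the members only the interval of Uhrf1, 0.01 to 1.75, lies wholly above 0.

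Per kb of exon, the control means ran from Mbd3 with 29.8 ± 10.5 FPKM (SD, n = 3) through Dnmt1 with 13.6 ± 3.47, Uhrf1 with 10.9 ± 4.28, Tet3 with 10.6 ± 4.22, Dnmt3a with 8.27 ± 2.56, Tet2 with 7.77 ± 2.79 and Tet1 with 6.81 ± 2.27 to Mbd1 with 2.41 ± 0.50 and Dnmt3b with 1.13 ± 0.74. Neighbours from Dnmt1 to Tet1 in this order differed by less than their SD. In Ybx1-KO the mean of Uhrf1 was 20.0 ± 5.99 FPKM and that of Dnmt1 17.5 ± 5.58, which is the reverse of their order in control, by a difference smaller than either SD. These levels divide by the union of all annotated exons, so a gene that uses few of them is understated.

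Some pairs of members ran together across the libraries and others did not. Dnmt3a and Tet3 had a Pearson r of 0.99 over the 6 libraries on log2 CPM, both with their peaks in control 2 and Ybx1-KO 2, and Tet1 and Tet2 had 0.87. Dnmt3b and Mbd3 ran opposite, at -0.72. The 5 genes most like Dnmt3b were Ncoa3, Myb, Wdr19, Adgrv1 and Atxn1l (r from 0.98 to 0.99). The 5 most like Dnmt1 were Grem1, Npas3, Gata3, Gtf2i and Safb (r from 0.98 to 1.00). These are the top values among 21328 genes over 6 points that share a normalization, and they describe these libraries only.

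The stage of the libraries was examined beside Dnmt3b. Of the 5 genes listed for late progenitors, Nfib and Nfix, transcription factors of the gliogenic switch, lay wholly below control in Ybx1-KO (background 8.15%). Nfix had 183, 19.4 and 273 CPM in control and 11.1, 16.8 and 13.1 CPM in Ybx1-KO (log2 fold change -3.54, SE 0.68, adjusted p = 0.167 in edgeR). Control 2 thus lay near the Ybx1-KO libraries and far from the other controls. Nfib had 690.1, 117 and 436 CPM against 35.2, 75.9 and 42.6 CPM, with control 2 again the lowest control and a log2 fold change of -3.02 (adjusted p = 0.167). Aldoc, an astrocyte-lineage enzyme, had 37.5, 3.51 and 57.8 CPM against 0.454, 3.53 and 1.85 CPM. Nfia and Zbtb20, also factors of late progenitors, had log2 fold changes of -1.74 and -0.68 with overlapping groups.

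Of the 5 early genes, 4 had estimates above 0 and 3 of these an unadjusted p below 0.05 (background 6.96%), but none passed the adjusted test and all 5 overlapped between the groups. Hmga2, a chromatin protein of young stem cells, had 14.0, 78.2 and 14.7 CPM in control and 56.9, 178 and 71.2 CPM in Ybx1-KO (log2 fold change 1.52, SE 0.62, adjusted p = 0.443 in edgeR). Igf2bp1, Lin28a and Lin28b, RNA-binding proteins of early embryonic cells, had log2 fold changes of 1.31, 2.61 and 0.87, and Igf2bp3 had -0.16. In each of the 5 early genes control 2 was the highest control. The globin genes, products of red blood cells, split the controls likewise. The adult globin Hbb-bs had 602, 16.3 and 191 CPM in control and 20.3, 6.33 and 4.97 CPM in Ybx1-KO, while the embryonic globin Hbb-bh1 had 0.815, 16.4 and 0.711 CPM and 52.4, 20.7 and 10.1 CPM. Dnmt3b followed this division in 5 libraries, being high in control 2, Ybx1-KO 2 and Ybx1-KO 3 and low in control 1 and control 3, and departed from it in Ybx1-KO 1, which had low Nfix and high Hmga2 but 4.20 CPM of Dnmt3b. All labels give E13.5, and the part of stage in the difference between the groups was not tested.

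**Figure D4:**
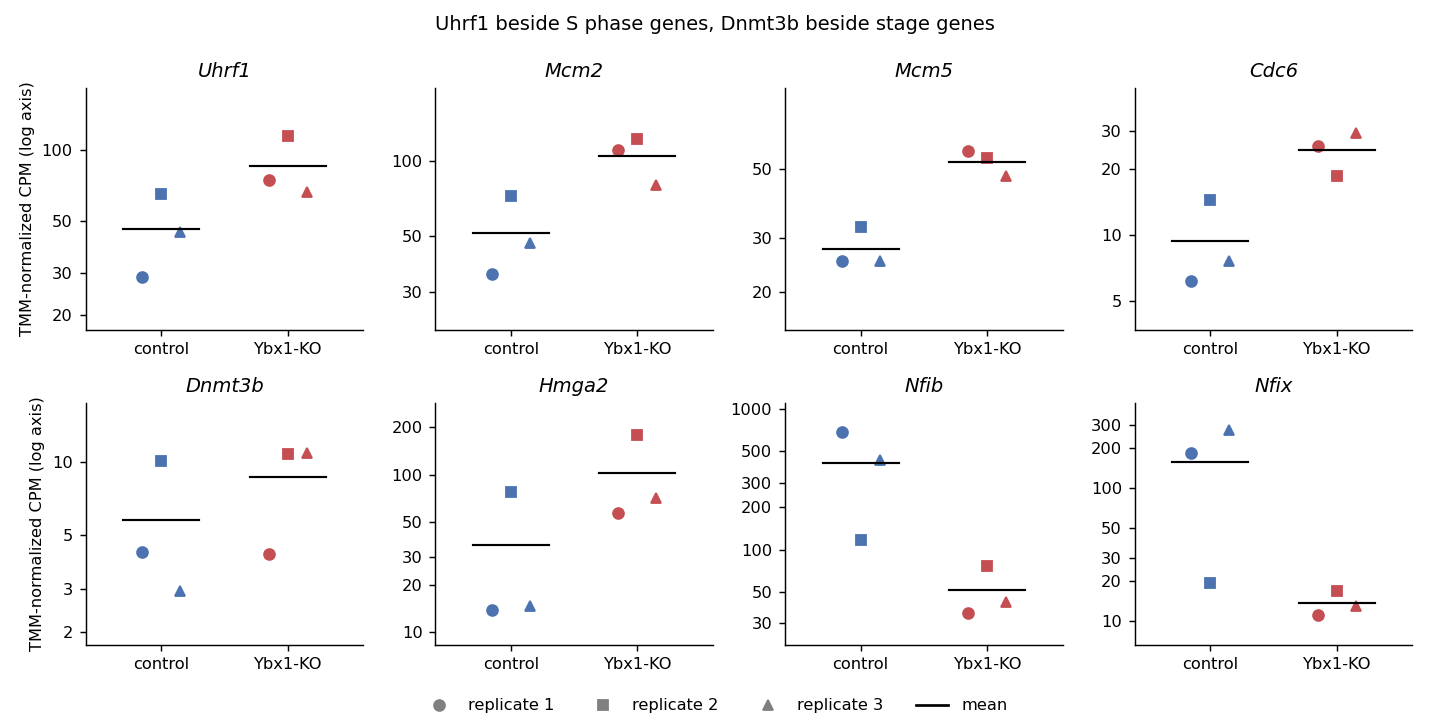
TMM-normalized CPM on a log axis in control (blue) and Ybx1-KO (red), with group means as lines. The top row has Uhrf1 and 3 S phase genes with an unadjusted p below 0.05, and the bottom row Dnmt3b and 3 stage genes. Control 2 (blue square) is the control nearest to the Ybx1-KO mean in all 8 panels, with 19.4 CPM of Nfix against 183 and 273 CPM in the other controls.

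Genes of S phase, in which Uhrf1 and Dnmt1 are used, were examined beside Uhrf1. Of the 14 listed, 13 had estimates above 0, against 13073 of the 21329 genes tested. Their median log2 fold change was 0.36, against 0.31 over all genes tested. Without Ybx1-KO 3 these medians were 0.41 and 0.013. None passed the adjusted test, 4 had an unadjusted p below 0.05 and all of these were higher (background 6.96%), and 5 had Ybx1-KO wholly above control (background 4.99%). The extremes were Cdc6, a licensing factor, with a log2 fold change of 1.37 (SE 0.45), and Top2a, the mitotic topoisomerase, with -0.06 (SE 0.45). Cdc6 had 6.19, 14.5 and 7.67 CPM in control and 25.6, 18.6 and 29.3 CPM in Ybx1-KO, with no overlap. The helicase subunits Mcm3, Mcm2 and Mcm5 had log2 fold changes of 1.04, 1.02 and 0.94. The other listed subunits, Mcm4, Mcm6 and Mcm7, had 0.40, 0.24 and 0.26, all with overlapping groups. Pcna, the replication clamp, and Mki67, the proliferation antigen, had 0.15 and 0.19. Control 2 was the highest control for Uhrf1 and for every listed S phase gene except Gins2 and Pcna. For Pcna it was the lowest control, with 62.9 CPM against 135 and 146 CPM. Without control 2 the median of the S phase list was 0.63.

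Markers of other cell types were examined beside Uhrf1. Of the 6 mesenchymal and meningeal markers, 5 were tested and all 5 were lower in Ybx1-KO at an unadjusted p below 0.05 (background 4.26%). Only 1 of these, Lum, had no overlap between the groups (background 8.15%). The 6 together summed to 117 to 844 CPM in control and 62.7 to 119 CPM in Ybx1-KO, with control 2 below Ybx1-KO 2. Of the 13 neuronal markers, 9 had estimates below 0, and 2 had no overlap with Ybx1-KO below (background 8.15%). At an unadjusted p below 0.05, Snap25, a protein of synaptic vesicle fusion, was lower without overlap (log2 fold change -1.28) and Nefm, a neurofilament, was higher (1.51). Of the 5 neural crest and Schwann markers, 3 were higher at an unadjusted p below 0.05, among them Sox10 and Foxd3, and the sum was 30.7 to 50.7 CPM in control and 55.3 to 165 CPM in Ybx1-KO. The 9 erythroid markers summed to 523 to 1219 CPM in control and 204 to 1234 CPM in Ybx1-KO. Microglial markers summed to 9.83 to 42.0 and 5.78 to 39.6 CPM, and endothelial markers to 19.8 to 46.7 and 12.7 to 40.6 CPM. In Ybx1-KO 1 the microglial genes Aif1 and Tyrobp were at 0, and in Ybx1-KO 2 Ptprc was. Of the 9 progenitor markers, 6 had estimates above 0 and 3 below. Nes, Hes5 and Prom1 lay wholly above control in Ybx1-KO (background 4.99%), while Fabp7 and Sox1 had log2 fold changes of -0.66 and -0.53 with overlap. The part of these cell types in the values of the members was not tested.

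The proteins that work with the members were taken from 5 lists. Of their 54 genes 52 were tested and none passed the adjusted test. At an unadjusted p below 0.05, 4 were higher and 6 lower in Ybx1-KO, that is 7.69% and 11.5% of the 52, against 6.96% and 4.26% of all genes tested. Their median log2 fold change was -0.16, against 0.31 over all genes. In 5 of the 52 the Ybx1-KO libraries lay wholly above control and in 7 wholly below, against 4.99% and 8.15% of all genes tested.

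Of the 11 maintenance and targeting partners, 10 were tested, 4 with estimates above 0 and 6 below. Their median log2 fold change was -0.18, and it was -0.36 without control 3, 0.095 without control 2 and 0.032 when libraries were scaled by their total counts alone. Zfp57, the zinc-finger protein that protects methylation at imprinted regions, had 164, 95.0 and 91.6 CPM in control and 22.3, 57.2 and 28.4 CPM in Ybx1-KO. The groups did not overlap, and the log2 fold change was -1.70 (SE 0.45, unadjusted p = 0.00145, adjusted p = 0.287 in edgeR). Trim28, the corepressor that Zfp57 recruits, had a log2 fold change of 0.47, and Zfp445, another imprint-protecting zinc-finger protein, had -0.83, both with overlapping groups. Cdca7, a partner of the remodeller Hells, lay without overlap above control at 0.50, with 21.7 to 24.8 CPM in control and 31.5 to 36.0 CPM in Ybx1-KO. Hells itself had -0.16. Dnmt3l, the cofactor of the de novo enzymes in germ cells, was below the filter, with 5 counts in control 1, 42 in Ybx1-KO 3 and 0 in the other four libraries. Dppa3, a germ-cell protein that displaces Uhrf1, had 7.48 CPM in Ybx1-KO 1 and 0 to 1.12 CPM in the other libraries.

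Of the 17 partners of active demethylation, 16 were tested, 7 with estimates above 0 and 9 below (median log2 fold change -0.08, and 0.20 when libraries were scaled by their total counts alone). Tdg, the glycosylase that cuts out the oxidised bases made by Tet enzymes, had 28.1, 33.1 and 21.0 CPM in control and 17.8, 14.7 and 12.9 CPM in Ybx1-KO. The groups did not overlap, with a log2 fold change of -0.85 (SE 0.39, adjusted p = 0.444 in edgeR). Idh1, an enzyme that makes the cosubstrate of Tet enzymes, had 204, 194 and 194 CPM against 128, 99.8 and 89.0 CPM, a log2 fold change of -0.90, and Lig3, a repair ligase, had -0.52, both without overlap. Xrcc1, the scaffold of that ligase, lay in the other direction, with 18.5, 18.5 and 23.9 CPM in control and 44.1, 33.1 and 30.0 CPM in Ybx1-KO (log2 fold change 0.82). The stress-induced adaptors Gadd45a and Gadd45g had 1.26 and 1.08, again without overlap, and in both Ybx1-KO 1 was the highest library, with 25.5 and 106 CPM.

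All 8 other methyl-CpG readers were tested, 3 with estimates above 0 and 5 below (median -0.22). Zbtb38, a zinc-finger reader, had 46.4, 53.5 and 39.8 CPM in control and 32.7, 25.3 and 15.1 CPM in Ybx1-KO, with no overlap and a log2 fold change of -0.93 (adjusted p = 0.444 in edgeR).

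All 13 NuRD subunits were tested, 4 with estimates above 0 and 9 below (median -0.23). Chd5, the neuronal ATPase of the complex, had 14.4, 12.5 and 19.8 CPM in control and 2.15, 1.66 and 12.2 CPM in Ybx1-KO (log2 fold change -1.55, SE 0.67), and Chd3, another ATPase, had -0.67, both without overlap. Chd4, the main ATPase of proliferating cells, had 0.32 with overlapping groups.

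The 5 methyl donor enzymes had 3 estimates above 0 and 2 below (median 0.34). Mtr, which regenerates methionine, had 14.3, 16.5 and 11.1 CPM in control and 48.4, 22.3 and 18.8 CPM in Ybx1-KO, with no overlap and a log2 fold change of 1.09 (adjusted p = 0.439 in edgeR). Mat2a, which makes S-adenosylmethionine, had 70.8, 61.3 and 43.0 CPM against 32.0, 43.3 and 21.3 CPM, where control 3 and Ybx1-KO 2 were level, and a log2 fold change of -0.86.

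**Figure D5:**
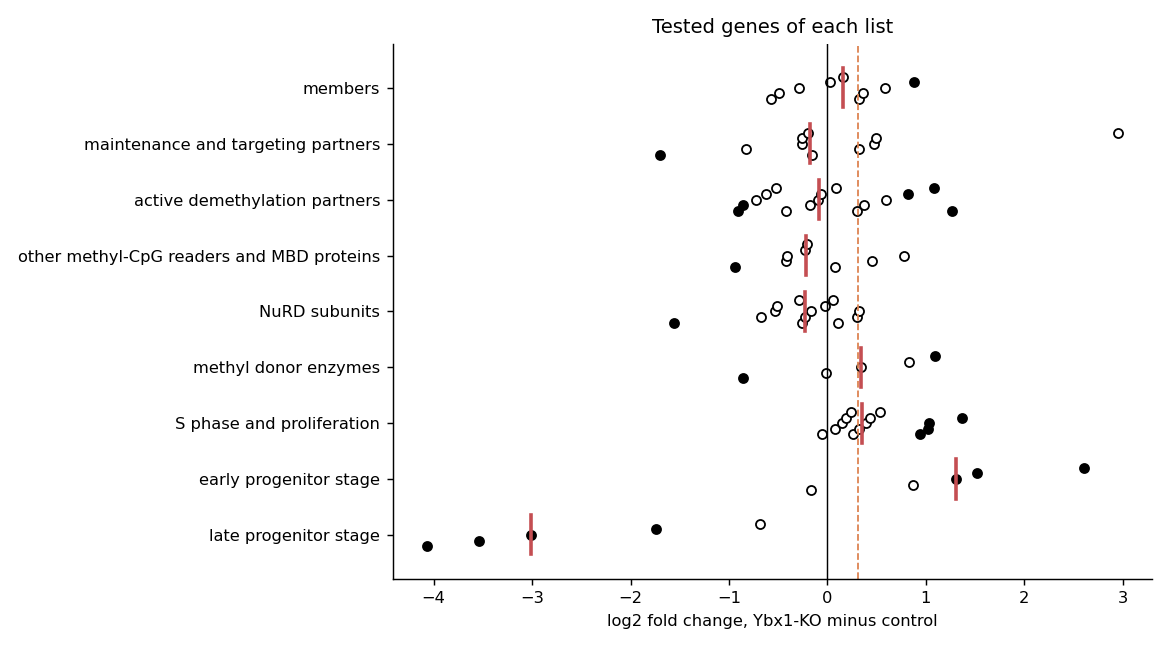
Log2 fold change of every tested gene of the members, the 5 partner lists, the S phase list and the 2 stage lists. Filled points have an unadjusted p below 0.05, red bars are list medians and the dashed line is the median of all genes tested, 0.31, with the late progenitor genes lowest at a median of -3.02.

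As a distant readout of methylation itself, 17 germline genes kept silent by promoter methylation in somatic cells were examined. Only 4 passed the filter, through Ybx1-KO 3 or, for Ddx4, through Ybx1-KO 1 and Ybx1-KO 3, and no list median is given for them. All 17 together held 24 to 216 counts in the first 5 libraries and 445 counts in Ybx1-KO 3, which had the fewest counts on genes. Per kb of exon that is 8.88 counts in Ybx1-KO 3 against 3.67 on its receptor genes, and 0.479 to 4.31 in the other libraries against 0.0278 to 0.337. Ddx4, a helicase of germ cells, had 0.767, 0.842 and 0.152 CPM in control and 8.62, 0.104 and 8.10 CPM in Ybx1-KO. Dazl, a germ-cell RNA-binding protein, was at 0.0508 to 0.568 CPM in all libraries. The libraries measured RNA, and no cytosine methylation was measured in them.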

How the data were processed

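RNA-seq libraries of sorted E13.5 NPCs (3 control, 3 Ybx1-KO) were used, numbered within each group in the order of their records. The authors deposited raw counts of read pairs per gene symbol, made with HTSeq 0.6.1p1 on a GENCODE annotation, with mm10 and GRCm38.p5 named as builds in the submitters' processing notes, along with CASAVA. The aligner, the strand setting of the counting and which of the HiSeq models ran each library are not given in the sources used here, so a sequencing batch could not be examined. The number in the titles of 2 control libraries is shared, and likewise in 2 Ybx1-KO libraries, with no stated meaning, and no number pairs libraries across groups.

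Exon lengths were unions of GENCODE M21 exons (GRCm38), which matched 92.8% of 51733 symbols. Genes whose mean FPKM exceeded 1 in at least one group were tested with edgeR 4.0.16 (TMM, quasi-likelihood test, Benjamini-Hochberg adjustment over all genes tested) in R 4.3.3, with thresholds of 0.05 for the adjusted p and 1.5 for the fold change. CPM and FPKM use TMM-scaled library sizes. SE is the log2 fold change divided by the root of the F statistic. Ratios within a library are log2 of counts per kb with 0.5 counts added, compared by two-sided exact permutation tests. The fits were run on simulated counts with known changes. Recovery of the changes was required only where libraries spread less than these do, which had a common biological coefficient of variation of 0.800. Every pair of libraries differed beyond sampling noise (chi-square over its degrees of freedom at least 59.5). Read pairs carry no molecular identifiers, so intervals and floors cover counting error only.

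Alternatives were limma 3.58.1 (voom, the study's method), DESeq2 1.42.0, 3 other scalings, 3 other filters, removal of the 20 most abundant genes, robust dispersion, other pseudocounts, no division by length, and leaving out each library. Subtraction of a receptor-gene background and leaving out libraries with the gene set held fixed were chosen after seeing the data.

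The members and lists were chosen with earlier results of these data known. Named genes are the members, Ybx1, partner genes with an unadjusted p below 0.05 or, up to 3 a list, without overlap, the stage genes, the extremes of the S phase list and the 5 genes most like Dnmt3b and Dnmt1. Partner, S phase, germline and marker genes named beyond this rule were chosen after their values were seen. The values of 1 gene of the reader list, which entered the fits and the counts, are left out of the text.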

Additional observations from a re-analysis of the deposited data

Results flagged for a closer look

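In data outside the comparisons, Ybx1-KO 3 lay above the control libraries in its share of read pairs outside genes, 59.5% against 36.2 to 46.7% in control. The 13 germline genes that did not enter the test summed to 32.3 CPM in Ybx1-KO 3, against 4.83 to 8.42 CPM in control and 2.08 to 2.95 CPM in the other Ybx1-KO libraries. Among the members this background takes the largest share in Dnmt3b, with 24.3% of its counts in Ybx1-KO 3, and in Mbd1, with 19.8%. Groups of 3 libraries are too small for a test of single outlying libraries.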

How the results depend on the processing

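No member was called in any of the 17 alternatives. The log2 fold changes of Dnmt1, Uhrf1, Dnmt3b, Tet1, Tet2 and Mbd1 kept their sign in all of them, and the Dnmt3a to Dnmt3b balance stayed negative in its 10. The median log2 fold change of all genes tested was 0.31, and 0.38 to 0.53 under the other scalings. It was 0.15 with limma-voom and 0.075 when only genes with CPM over 1 in 3 libraries were kept. Without Ybx1-KO 3 it was 0.013, without Ybx1-KO 2 it was 0.67, and without the filter on low counts it was 0.70. Filters and left-out libraries also changed which genes were tested, so 0.31 is a reference for the main fit only. The number of genes called was 0 in the main analysis, 214 with DESeq2 and 193 without a filter on low counts, and 0 to 946 when 1 library was left out: 73 without control 2, 696 without Ybx1-KO 1 and 946 without Ybx1-KO 2. With the gene set held fixed it was 0 to 420, of which 71 without control 2, 107 without Ybx1-KO 1, 420 without Ybx1-KO 2 and 46 without Ybx1-KO 3. The cause was not tested. The log2 fold change of Dnmt3a turned to -0.064 without the filter, where more genes enter the scaling, and ran from -0.16 to 0.31 as libraries were left out, that of Tet3 from -0.10 to 0.54 and that of Mbd3 from -0.65 to 0.039. The log2 difference of the Dnmt1 to Dnmt3a plus Dnmt3b ratio ran from -0.073 (without Ybx1-KO 1) to 0.42. The median of the methyl donor enzymes ran from 0.039 to 0.73 (without control 3) and that of the S phase list from 0.29 to 0.63 (without control 2).

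No paired analysis was possible because the labels give no replicate number that is shared between the groups. The 95% intervals of the members span folds from about 0.36 to 3.94, which bounds what this depth and number of libraries can show.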
